A study of Mus musculus with 6 samples.

Results

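Fatty acid synthesis and desaturation genes are described here in primary mouse lung fibroblast cultures that received purmorphamine. The set was given as 10 named genes (Acly, Acss2, Acaca, Fasn, Scd1, Scd2, Elovl6, Fads1, Fads2 and Me1), and a gene entered when a probe set of the array carried its symbol and no other. That held for 9 of the 10 genes, out of 22180 named genes in the whole series, and each of the 9 had 1 probe set. The probe set of Scd2 carries a second symbol as well, so Scd2 was not analysed here.

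The cultures came from digested lungs of wild-type male C57BL/6 mice aged 8 weeks, were grown in serum-containing medium and were used within 3 passages. Cells were divided over wells and received purmorphamine (labelled 5um, taken as 5 µM) or vehicle for 24 h, with 3 wells and 3 Affymetrix arrays in each of the 2 groups. Purmorphamine is a small molecule agonist of Smoothened, the membrane protein that passes Hedgehog signals on to the Gli transcription factors, and the comparison asks which transcripts such an agonist changed. The labels do not say from how many mice or cell pools the wells came, so the spread behind each p-value is that of wells and may be technical.

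Animal cells make fatty acids in the cytosol from acetyl-CoA, which ATP citrate lyase (Acly) cuts from citrate and acyl-CoA synthetase short-chain family member 2 (Acss2) makes from acetate. Acetyl-CoA carboxylase (Acaca) turns it into malonyl-CoA, fatty acid synthase (Fasn) builds palmitate from these units with NADPH that comes in part from malic enzyme (Me1), and elongases and desaturases such as Elovl6, Scd1, Fads1 and Fads2 lengthen the chain and add double bonds. Transcription of these enzymes is driven largely by SREBP proteins, which Srebf1 and Srebf2 encode, and the products of Srebf1 are known chiefly for fatty acid genes, that of Srebf2 chiefly for cholesterol genes. In the lung, type II epithelial cells need the pathway for surfactant lipid, and macrophages and lipid-storing fibroblasts also carry it.

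The genes of this pathway did not move together. Acly fell 1.47-fold, and the polyunsaturated fatty acid desaturase genes Fads2 and Fads1 fell 1.30-fold and 1.18-fold, while Acaca rose 1.23-fold. Fasn, the synthase itself, differed by less than the spread between arrays, and Acss2, Me1, Elovl6 and Scd1 did not pass the test. Differences are purmorphamine minus vehicle on the log2 scale of the deposited values, where 1 unit is a doubling of the array signal, and a gene was called when its adjusted p in limma, a linear model fitted across all genes, was under 0.05 after Benjamini-Hochberg adjustment. By that rule 3 of the 9 measured genes were lower, against 7.16% of all genes tested, and 1 was higher, against 7.18% of all genes. In either direction 4 of 9 were called, where the share over all genes was 14.3%. Each of the 9 was brighter than at least 55% of all genes, so that share is not one of equally bright genes. Without the dimmest genes (a share of 0.333), 4342 of 14786 genes were called, with 3 members lower and 1 higher. The median difference of the 9 genes was -0.004, beside -0.01 for all genes tested. No member reached a 1.5-fold change. With 1 array left out at a time, the calls of Acly and Fads2 held in 6 of 6 cases, that of Acaca in 3 and that of Fads1 in 1. The 9 genes and all gene lists below were named with earlier results of these data known, so these counts are descriptions of the set.

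**Figure D1:**
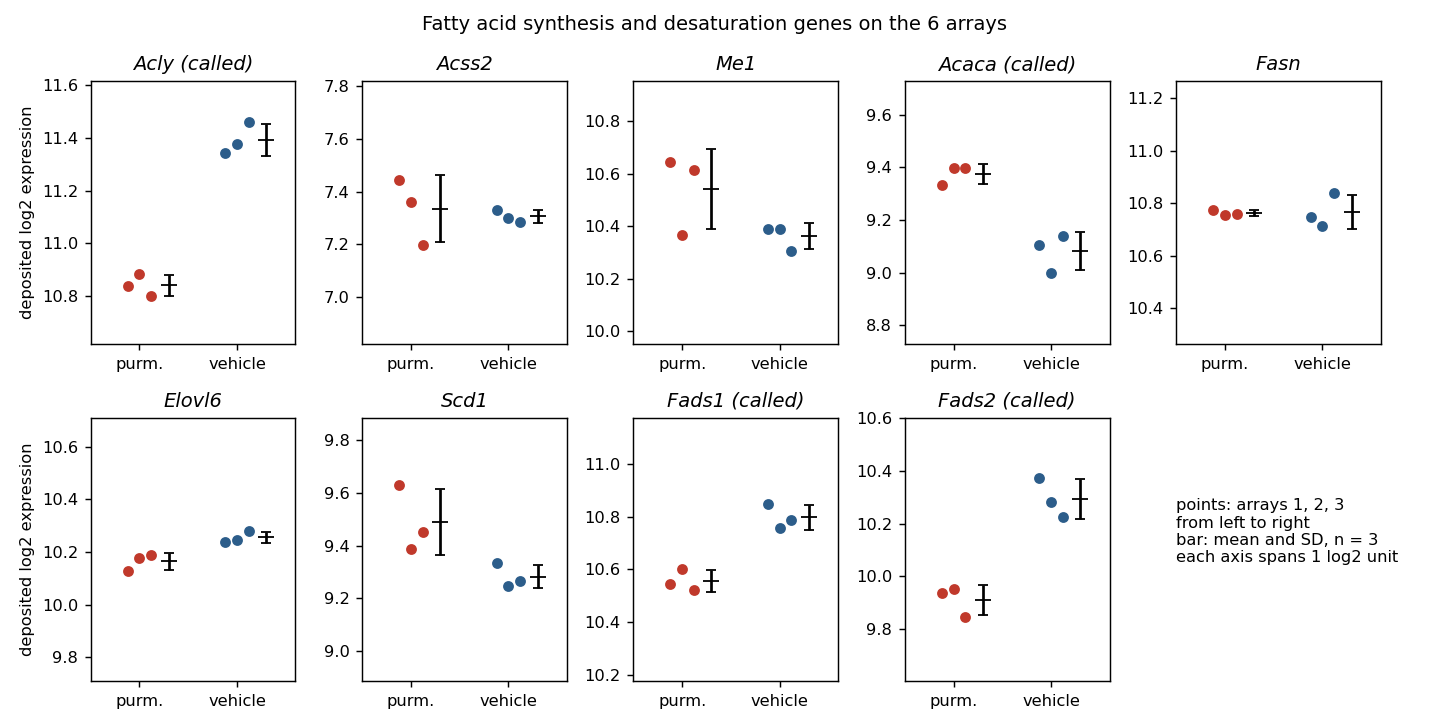
Deposited log2 expression of the 9 measured genes on each array, with purmorphamine arrays (red) left of vehicle arrays (blue), arrays 1 to 3 from left to right within a group, and the mean with its SD (n = 3) beside the points. All panels span the same height, so the gap of 0.55 in Acly can be set against -0.004 in Fasn.

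The arrays fell into their 2 groups. Array medians lay between 6.34 and 6.39 log2 units, a closeness that the normalization sets, the median SD of a gene within a group was 0.08, and the leading principal component (54.7% of the variance) split purmorphamine from vehicle arrays. Fibroblast markers were bright: Col1a1 averaged 13.09 on purmorphamine arrays and 12.77 on vehicle arrays, against array upper quartiles of 8.20 to 8.24. Of 12 fibroblast markers 8 rose and Thy1 fell, and their summed linear signal was 47792 to 49510 on purmorphamine arrays and 43532 to 44836 on vehicle arrays. Macrophage transcripts were bright too, with Lyz2 at 14.01 on purmorphamine arrays and 13.96 on vehicle arrays. Of 12 leukocyte and macrophage markers 1 rose and 4 fell, with summed signals of 59630 to 61763 on purmorphamine arrays and 64423 to 64835 on vehicle arrays. Among them Itgam fell by 1.46, Csf1r by 0.63, Mrc1 by 0.62 and Adgre1 by 0.37, while Itgax rose by 0.31. The median of the 12 was 0.01, with 6 differences above 0 and 6 below. With a linear offset of 50 or with a robust variance trend, 4 markers were higher. Of 10 epithelial markers 1 rose and 2 fell, or 0 fell with any 1 array left out (summed signal 2533 to 2621 on purmorphamine arrays and 2625 to 2641 on vehicle arrays), and the type II cell genes Sftpc and Sftpa1 had vehicle means of 6.40 and 5.26, near or under the array medians, with Lamp3 and Scgb1a1 under the lower quartile on every array. Other epithelial markers were bright: Cdh1 averaged 10.10 on purmorphamine arrays and 10.15 on vehicle arrays, Abca3 averaged 9.38 and 9.62 in the same groups, and Epcam rose by 0.50 to a mean of 8.90 with purmorphamine, against 8.41 with vehicle. None of the 6 adipocyte markers passed the limma test (0 at an unadjusted p under 0.05), and their sums overlapped, at 449 to 479 on purmorphamine and 445 to 474 on vehicle arrays. Of 6 endothelial markers 3 rose, with summed signals of 3202 to 3339 on purmorphamine arrays and 2577 to 2709 on vehicle arrays. Beside these marker counts, 7.18% of all genes tested were higher and 7.16% were lower. All changes reported here are those of whole cultures, in which fewer cells of a type and less RNA per cell cannot be told apart. The part of these marker shifts in the results below was not tested.

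Acly opens the pathway in the cytosol and showed the largest difference of the 9 genes. It read 10.84, 10.88 and 10.80 on the purmorphamine arrays, against 11.34, 11.38 and 11.46 on the vehicle arrays. The groups lay far apart beside their spreads of 0.04 and 0.06 (SD, n = 3 each). Acly fell by 0.55 log2 units (SE 0.06, 95% interval -0.69 to -0.42, limma adjusted p = 0.0012). Acss2, the other source of cytosolic acetyl-CoA, read 7.45, 7.36 and 7.20 with purmorphamine and 7.33, 7.30 and 7.28 with vehicle. The purmorphamine values spanned the vehicle values on both sides, and the difference was 0.03 (95% interval -0.14 to 0.20, adjusted p = 0.84). The probe set of Acss2 was the dimmest of the 9 and closest to the array medians, though brighter than 55% of all genes. Whether its difference was compressed was not tested.

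Me1, which makes NADPH for the synthase from malate, read 10.64, 10.37 and 10.61 on purmorphamine arrays, against 10.39, 10.39 and 10.31 on vehicle arrays. Purmorphamine replicates 1 and 3 lay above all vehicle arrays and replicate 2 lay among them. The difference of 0.18 (95% interval -0.02 to 0.38) did not pass the test (limma adjusted p = 0.22). Without purmorphamine replicate 2 it was 0.27 and passed, at adjusted p = 0.046, so that 1 array decides the call.

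The carboxylase and the synthase, which act in sequence, gave different results. Acaca read 9.332, 9.397 and 9.397 with purmorphamine, against 9.104, 8.999 and 9.138 with vehicle. All purmorphamine arrays were above all vehicle arrays, and Acaca rose by 0.30 (SE 0.06, 95% interval 0.16 to 0.43, limma adjusted p = 0.017). That call was lost without purmorphamine replicate 2 (adjusted p = 0.055), purmorphamine replicate 3 (0.060) or vehicle replicate 2 (0.055), while the difference stayed between 0.25 and 0.32 with any 1 array left out. Fasn, the enzyme that assembles palmitate, read 10.77, 10.75 and 10.76 on purmorphamine arrays and 10.75, 10.71 and 10.84 on vehicle arrays. The purmorphamine values lay inside the vehicle range. The difference of -0.004 (limma adjusted p = 0.97) had a 95% interval from -0.13 to 0.12, so a change of Fasn as large as that of Acly lies outside it.

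Elovl6, the elongase that takes palmitate to stearate, read 10.13, 10.18 and 10.19 with purmorphamine, against 10.24, 10.25 and 10.28 with vehicle. The groups did not overlap, but the gap was small, and the difference of -0.09 (95% interval -0.21 to 0.03) did not pass (limma adjusted p = 0.29). Scd1, the desaturase that makes oleate and palmitoleate, read 9.63, 9.39 and 9.45 on purmorphamine arrays and 9.33, 9.25 and 9.27 on vehicle arrays. Again the groups did not overlap, with purmorphamine replicate 1 highest, and the difference of 0.21 (95% interval 0.03 to 0.38) had an adjusted p of 0.12 in limma. Groups did not overlap in 6 of the 9 genes (2 with purmorphamine above, 4 below), where 34.2% of all genes tested, dim ones included, had no overlap.

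Fads2 and Fads1 encode the desaturases that convert linoleic and alpha-linolenic acid into longer polyunsaturated fatty acids, Fads2 at the entry step and Fads1 further on. Fads2 read 9.94, 9.95 and 9.85 with purmorphamine, against 10.37, 10.28 and 10.22 with vehicle. Fads1 read 10.54, 10.60 and 10.52 with purmorphamine, against 10.85, 10.76 and 10.79 with vehicle. In both genes every purmorphamine array was below every vehicle array. Fads2 fell by 0.38 (SE 0.06, 95% interval -0.53 to -0.24, limma adjusted p = 0.0078) and Fads1 fell by 0.24 (SE 0.05, 95% interval -0.37 to -0.12, adjusted p = 0.026). The Fads2 call held with any 1 array left out (adjusted p from 0.018 to 0.032). The Fads1 call held in 1 of these 6 cases, without purmorphamine replicate 2 (0.045), and was lost at adjusted p = 0.086 without purmorphamine replicate 1, 0.082 without purmorphamine replicate 3, 0.083 without vehicle replicate 1, 0.054 without vehicle replicate 2 and 0.070 without vehicle replicate 3. Whether the 2 desaturases fell unequally was asked from the difference Fads1 minus Fads2 within each array, which was 0.61, 0.65 and 0.67 on purmorphamine arrays and 0.47, 0.47 and 0.56 on vehicle arrays. The groups did not overlap, and the shift of 0.14 had an exact two-sided permutation p of 0.1, the smallest that 3 arrays against 3 allow.

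**Figure D2:**
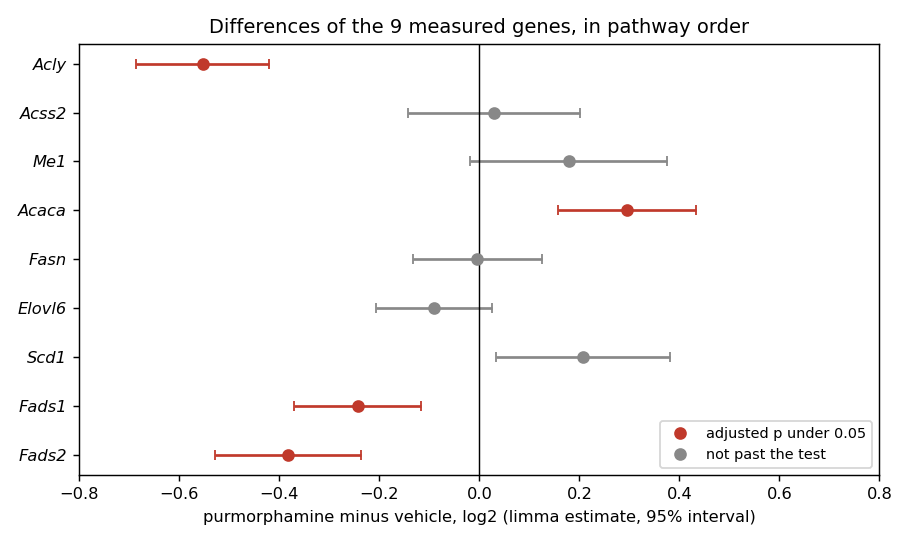
Fitted difference of each of the 9 genes (horizontal axis, purmorphamine minus vehicle in log2 units) with its 95% interval from limma, in pathway order from acetyl-CoA supply at the top to desaturation at the bottom. The called genes, in red, are Acly, Fads1 and Fads2 on the lower side and Acaca on the higher side, and the interval of Fasn is centred near 0.

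Spread between wells differed among the genes. Me1, Acss2 and Scd1 had SDs of 0.15, 0.13 and 0.12 on purmorphamine arrays, against 0.05, 0.02 and 0.04 on vehicle arrays (n = 3 each). For Fasn it was the other way round, with 0.01 on purmorphamine arrays and 0.06 on vehicle arrays. With 3 arrays in a group these SDs are themselves imprecise, and their differences were not tested.

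Fads1 and Fads2 lie side by side on chromosome 19, with Fads3, a related desaturase gene, on the other side of Fads2. Fads3 read 11.56, 11.65 and 11.48 on purmorphamine arrays, against 11.84, 11.84 and 11.86 on vehicle arrays, and fell by 0.28 (SE 0.06, limma adjusted p = 0.021). All 3 Fads genes of the cluster thus fell, by 0.24 to 0.38. The next gene past Fads3, Rab3il1, which encodes an exchange factor for Rab GTPases, fell by 1.38, and the next past Fads1, the DNA replication flap endonuclease gene Fen1, fell by 0.55 (with its 2 probe sets averaged, the difference was -0.29 and missed the test at adjusted p = 0.060). Farther out the direction turned: Best1, a chloride channel gene, rose by 0.56, Tmem258 by 0.34 and the transcription factor gene Myrf by 0.21. Fth1, the next gene past Best1, differed by 0.10 and did not pass (limma adjusted p = 0.24). Of the called genes, Fads3 passed without purmorphamine replicate 2 and missed when any 1 other array was removed, with adjusted p up to 0.069. Tmem258 missed it in all but vehicle replicate 1 (up to 0.106), and Myrf in all 6 (0.078 to 0.133). The neighbours were taken by their place on the chromosome in RefSeq assembly GRCm38.p6.

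**Figure D3:**
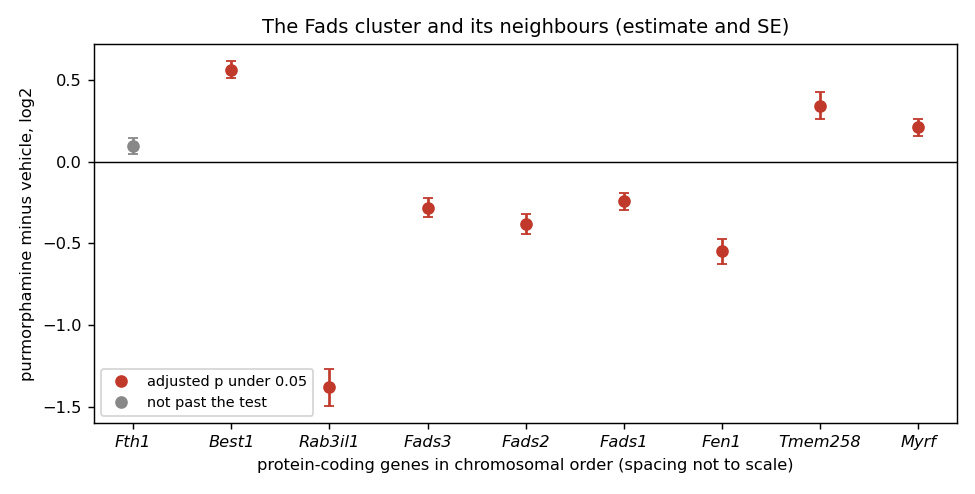
Fitted difference (vertical axis, purmorphamine minus vehicle in log2 units) with its SE for the 9 protein-coding genes from Fth1 to Myrf in their order on chromosome 19, with called genes in red. The 5 adjacent genes from Rab3il1 to Fen1 lie below 0, between -1.38 and -0.24, and Best1, Tmem258 and Myrf lie above it. Fth1, not called, is at 0.10.

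Promoters of Acly and Fads2, which fell, and of Fasn are shown because SREBP proteins act at such promoters together with the CCAAT-binding factor NF-Y and the GC-box factor Sp1. The RefSeq promoter table (GRCm38.p6) holds windows for 7 of the 10 genes, Acss2, Elovl6, Me1, Acaca, Acly, Fasn and Fads2, in 8 windows, and the 250 bases before each listed start were searched on both strands. Capitals mark matches to CCAAT (reverse ATTGG) or GGGCGG (reverse CCGCCC).
Acly, chr11:100528001-100528250, minus strand: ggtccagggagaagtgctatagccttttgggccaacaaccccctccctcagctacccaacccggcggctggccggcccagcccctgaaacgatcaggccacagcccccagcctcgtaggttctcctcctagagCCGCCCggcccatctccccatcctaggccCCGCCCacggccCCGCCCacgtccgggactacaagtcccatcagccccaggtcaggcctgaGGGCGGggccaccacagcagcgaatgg
Fads2, chr19:10101504-10101753, minus strand: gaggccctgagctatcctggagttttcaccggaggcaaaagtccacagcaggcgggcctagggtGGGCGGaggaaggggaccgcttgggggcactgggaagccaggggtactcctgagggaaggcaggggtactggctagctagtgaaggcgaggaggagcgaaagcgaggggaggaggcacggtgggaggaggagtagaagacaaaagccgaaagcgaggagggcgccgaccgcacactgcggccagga
Fasn, chr11:120824548-120824797, minus strand: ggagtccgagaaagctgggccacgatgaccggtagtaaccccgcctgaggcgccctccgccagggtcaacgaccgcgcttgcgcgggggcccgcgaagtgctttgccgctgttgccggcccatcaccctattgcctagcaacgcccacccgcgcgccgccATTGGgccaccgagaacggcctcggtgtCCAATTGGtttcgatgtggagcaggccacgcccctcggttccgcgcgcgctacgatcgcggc
The Acly window holds 4 GGGCGG matches and no CCAAT, the Fads2 window 1 GGGCGG match and no CCAAT, and the Fasn window, whose listed start lies inside the annotated span of the gene, 3 CCAAT matches, of which 2 overlap, and no GGGCGG. Over the member windows CCAAT was found in 3 of 8 and GGGCGG in 4 of 8, against 33.8% and 32.7% of all 32851 windows. TCACNCCAC, the core of the sterol element of the LDL receptor promoter (reverse GTGGNGTGA), was in 0 of 8 member windows and 1.05% of all windows, CACGTG in 0 of 8 and 6.02%, and CATGTG (reverse CACATG) in 1 of 8, in 1 of the 2 Me1 windows, and 12.3%. In 18 windows of 15 cholesterol synthesis and uptake genes, TCACNCCAC was in 1, CCAAT in 14, GGGCGG in 15, CACGTG in 3 and CATGTG in 1. The absence of TCACNCCAC is thus not particular to the member windows. A match is a description of letters, and its absence says only that these letters are not in the window.

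Genes that feed the pathway leaned lower. Of 12 measured genes of citrate, acetyl unit and NADPH supply, 5 fell and 1 rose, with a median of -0.18. Of all genes tested, 7.16% were lower and 7.18% were higher. Each of the 12 was brighter than at least 47% of all genes, so these shares are not those of equally bright genes. Without the dimmest genes, 2092 of 14786 genes were lower and 2250 were higher, and the counts of this list stayed at 5 and 1. Idh1, the cytosolic isocitrate dehydrogenase that makes NADPH, read 11.12, 11.04 and 11.06 with purmorphamine, against 11.43, 11.36 and 11.39 with vehicle, and fell by 0.32 (limma adjusted p = 0.0078). The others that fell were the mitochondrial malic enzyme gene Me2 (0.26), the pentose phosphate genes Rpia (0.26) and Pgd (0.24), and the citrate synthase gene Cs (0.22). The 1 rise was that of Mpc1, a subunit of the mitochondrial pyruvate carrier, by 0.41 (0.25 when its 2 probe sets were averaged). The citrate exporter gene Slc25a1, which supplies Acly with its substrate, differed by -0.08 and did not pass. With 1 array left out, 1 or 2 genes of this list fell: Idh1 was called in all 6 cases, Pgd and Cs in 0, Me2 in 1 (without vehicle replicate 2, 0.042) and Rpia in 1 (without purmorphamine replicate 2, 0.036), with adjusted p up to 0.131 in the lost cases.

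Of 22 other carboxylase, elongase, desaturase and chain elongation genes 4 fell and 1 rose (22.7% called, beside 14.3% of all genes tested), with a median of -0.02. Hacd4, which belongs to the dehydratases of very long chain elongation, read 9.97, 9.90 and 10.01 on purmorphamine arrays, against 10.56, 10.47 and 10.49 on vehicle arrays, and fell by 0.54 (limma adjusted p = 0.0014), close to the 0.55 of Acly. Its relative Hacd1 fell by 0.30. Fads3 (0.28) and Elovl1, an elongase of very long chains (0.26), also fell, and Elovl7 rose by 0.30. Acacb, the mitochondrial relative of Acaca, differed by 0.06 (adjusted p = 0.70) and was dim. Elovl1 missed the test without any 1 array but purmorphamine replicate 2 (adjusted p up to 0.078), and Elovl7 without any but vehicle replicate 3 (up to 0.097).

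Among 22 measured regulators of lipogenic transcription and of the carboxylase, 3 fell and 1 rose, with a median of -0.03. The share called was 18.2%, near the 14.3% of all genes tested. Srebf1, whose products drive fatty acid genes, read 8.32, 8.26 and 8.21 with purmorphamine, against 8.35, 8.34 and 8.37 with vehicle. The groups did not overlap, but the difference of -0.09 (95% interval -0.22 to 0.03) did not pass (limma adjusted p = 0.30). Srebf2 read 9.36, 9.41 and 9.36 with purmorphamine, against 10.25, 10.20 and 10.30 with vehicle, and fell by 0.87 (adjusted p = 1.9e-04). Insig1, the endoplasmic reticulum protein that holds SREBP precursors back when sterols are plentiful and is itself an SREBP target, fell by 1.06. Mlxipl, which encodes the carbohydrate response factor ChREBP, fell by 0.30 (by 0.17 with a linear offset of 50) from a dim probe set, a call lost without purmorphamine replicate 1 (adjusted p = 0.066), purmorphamine replicate 2 (0.057), vehicle replicate 2 (0.054) or vehicle replicate 3 (0.053). The 1 rise was that of the SREBP protease gene Mbtps2 (0.19), lost with any 1 array left out (0.084 to 0.134), and up to 5 regulators were higher over the other settings tried. Nr1h3, the LXR alpha gene (0.19), and Thrsp, a lipogenic cofactor gene (0.02), did not pass.

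Of the 6 LXR targets outside fatty acid synthesis, which oxysterol receptors raise together with Srebf1 in many tissues, 3 rose and 0 fell (0 lower at an unadjusted p under 0.05), with a median of 0.33. Of all genes tested, 7.18% were higher. Mylip, the ubiquitin ligase that removes the LDL receptor, rose by 0.87, and the cholesterol exporter genes Abca1 and Abcg1 rose by 0.60 and 0.53 (limma adjusted p from 1.6e-04 to 0.0035). Apoe differed by 0.13 and did not pass. These 3 calls held with any 1 array left out.

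Cholesterol synthesis and uptake genes, which share SREBP control with the fatty acid genes, were nearly all lower. In that list 16 of 17 measured genes fell and 0 rose (0 higher at an unadjusted p under 0.05 in limma), with a median of -0.76, where 7.16% of all genes tested were lower. Sqle, squalene epoxidase, fell by 1.46, while Fdps fell by 1.23, Msmo1 fell by 1.21 and the sterol transfer gene Stard4 fell by 1.16. The 9 fatty acid genes ran from -0.55 to 0.30, so the lowest of them, Acly, lay above the median of the cholesterol list. No test was made between the lists.

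On the side of fatty acid use, 0 of 19 oxidation genes were called in limma (2 lower and 2 higher at an unadjusted p under 0.05), where the share over all genes was 14.3%. Their median was -0.01, with differences from -0.18 to 0.22. Cpt1a, which lets fatty acids into mitochondria and is inhibited by malonyl-CoA, differed by -0.18 at an adjusted p of 0.0503, and Cpt2 by 0.22 at 0.059. Over the other settings tried, up to 2 genes of this list were lower and up to 2 higher. Of 11 genes of fatty acid activation and glycerolipid synthesis 2 rose and 0 fell (1 lower at an unadjusted p under 0.05). That share of 18.2% called was near the 14.3% of all genes tested. Acsl4, which activates arachidonic and related polyunsaturated acids, rose by 0.47 (limma adjusted p = 0.0046), and Lpin1, a phosphatidate phosphatase gene, by 0.24, a call held with 1 array left out only without purmorphamine replicate 3 (0.047, and up to 0.096 in the other 5 cases). The triglyceride synthesis genes Dgat1 and Dgat2 differed by -0.23 and 0.23, and neither passed.

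**Figure D4:**
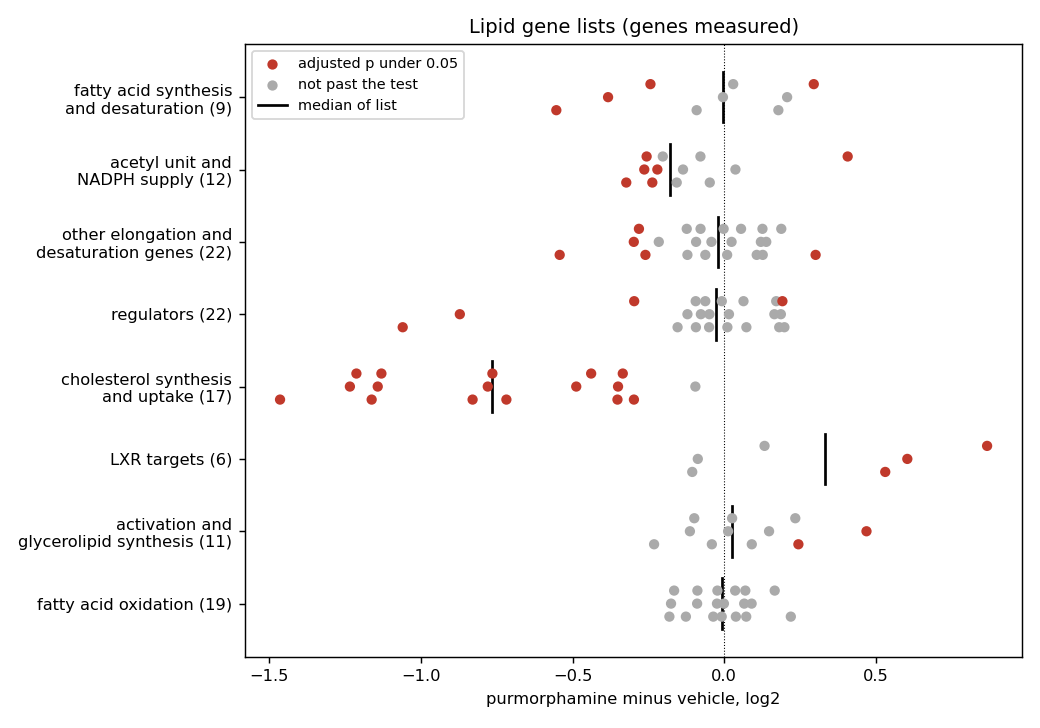
Fitted difference (horizontal axis, purmorphamine minus vehicle in log2 units) of every measured gene of 8 lipid gene lists, with called genes in red, the others in grey and the list median as a black bar. The fatty acid synthesis and desaturation genes in the top row lie on both sides of 0, while cholesterol genes lie on the lower side and 3 LXR targets reach 0.53 to 0.87.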

How the data were processed

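Gene expression was measured on 6 Affymetrix arrays, 3 of purmorphamine and 3 of vehicle wells. The table that the authors deposited gives each probe set a log2 value on each array. The submitters' processing notes name oligo, RMA and limma, with no versions or build stated. RMA forces the arrays onto a common distribution, which hides any shift shared by all genes and compresses changes of dim ones. Precision is limited by the number of arrays (median SE of a difference 0.07).

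Of 41345 probe sets, 23521 had 1 gene symbol in the platform annotation, 16010 had none and 1814 had several, and those with 1 were used. The probe set with the highest mean was kept for each of 22180 genes. Scd2 and some genes of the lists are not reported here. Differences come from limma 3.58.1 (lmFit, eBayes; R 4.3.3), without a block or a filter on dim genes, and were tested two-sided. A list is described by its counts and median, without a set test. The members and lists were chosen with earlier results of these data known. Named besides the members are at most 4 genes of each list with the smallest p, 7 further genes whatever their p, and, chosen after their values were seen, the neighbours of the Fads genes and further list members. Of the genes named by the rule, marker genes are given mainly by their counts. The alternatives were each array left out, the replicate number as a block, weights per array, a robust eBayes with a variance trend, averaged probe sets, probe sets tested separately, an offset of 50 added to linear values, removal of the dimmest genes (a share of 0.333), median centring, quantile normalization, a looser threshold (adjusted p under 0.1) and a minimum change of 1.5-fold. For the other lists and named genes they were applied after seeing the data. The code was tested on simulated data with known changes. It recovered 86% of changes of 1 log2 unit and 54% of changes of 0.5, so real changes of that smaller size can go uncalled. Python 3.11.15 and matplotlib 3.10.9 drew the plots.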

Additional observations from a re-analysis of the deposited data

How the results depend on the processing

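Over 14 refits, Acly and Fads2 were called lower in all 14 (differences from -0.58 to -0.52 and from -0.42 to -0.34), and Fasn, Acss2 and Elovl6 were called in 0. Acaca was called in 11 (0.25 to 0.32) and Fads1 in 8 (-0.27 to -0.22). Scd1 was called only with eBayes with trend and robust (adjusted p = 0.025), which gave 2 members higher, and Me1 only without purmorphamine replicate 2. When 1 array at a time was removed, leaving fewer samples, 1967 to 2374 genes were called, with 2 to 3 members lower and 0 to 1 higher. The members' median then ran from -0.03 to 0.02, and the shift of Fads1 minus Fads2 from 0.12 to 0.17, with an exact permutation p of 0.2 without purmorphamine replicate 2 or 3 and of 0.1 otherwise. A fold of at least 1.5 left 525 genes and 0 members lower or higher, with Acly at 1.47. With the replicate number as a block, 2432 genes were called, against 3181 without it, and Fads1 missed the test (adjusted p = 0.067). Deviations from the group means correlated at 0.106, 0.024 and 0.103 between arrays of the same number and at -0.095 to -0.008 across numbers. Every array thus correlated best with its own number, a hint from the data and not from the design. The second principal component (13.2% of the variance) also set both arrays numbered 3 apart, at -9.6 and -13.6, against 3.1 to 6.9 for the others. The labels state no pairing, so the main fit has no block, and whether the numbers pair the wells is not known. The comparison of Scd1 with Scd2 was not run, because Scd2 was not analysed here. With 1 array left out, 1 to 2 supply genes were lower, against 5 on all arrays, 2 to 5 genes of the other elongation and desaturation list, against 4, and 0 epithelial markers, against 2, while 0 regulators were higher, against 1. In the other direction, 4 regulators and 4 leukocyte markers were higher with a linear offset of 50, 3 of each without the dimmest genes, and 5 regulators and 4 leukocyte markers with trend and robust, against 1 of each.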

Other observations

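Mitochondria hold a separate fatty acid synthesis pathway that makes the precursor of lipoic acid. Of its genes, 4 chosen here after their values were seen did not pass the test in limma: Mcat, the malonyl transferase, differed by 0.11 (adjusted p = 0.34), Oxsm, the condensing enzyme, by 0.02 (0.85), Cbr4, a ketoacyl reductase subunit, by 0.12 (0.30) and Mecr, the enoyl reductase, by -0.12 (0.19). Of the Scd relatives on chromosome 19, Scd3 differed by -0.09 (adjusted p = 0.73) and Scd4 by -0.002 (adjusted p = 0.99), and both were dim.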
